A study of Mus musculus with 15 samples.

Results

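The 10 genes described here are genes that textbooks and atlases tie to resident macrophages of the spleen and similar tissues: the complement chains C1qa, C1qb and C1qc, the ficolin Fcna, the scavenger receptor cysteine-rich proteins Cd5l and Marco, the receptor kinases Mertk and Axl, the adhesion molecule Vcam1 and the transcription factor Maf. They were chosen by name with earlier results of these arrays known, several of them because they differed between the GFK and GFW arrays, so for that contrast values are given as a description with no test. The same GFW arrays serve in the other comparisons with GFW, so the choice may favour calls higher than GFW there. The p-values of those comparisons do not allow for the choice. Each gene is read by the probe set with its symbol alone and, where there were several, by the one with the highest mean over all arrays. They are 10 of 22180 genes with such a probe set, and all 10 are among the 14822 genes tested, which had to lie above the 40th percentile of the array on at least 3 arrays. Cd5l lay above that percentile on 6 of 15 arrays and so passed through the groups where it is high. That filter means nothing can be read from the number that passed.

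The study hybridised RNA of mouse myeloid cells to 15 arrays, in 5 groups of 3. The RB and GFW groups hold spleen cells of C57Bl/6 mice treated with G-CSF, a growth factor that releases myeloid cells and progenitors from the marrow. The cells were taken as CD11b+CD34+ after removal of cells carrying CD4, CD8, Ly6G, B220 or Ter119. RB and GFW carry the same wild-type labels apart from the code and prefix of their titles. GFK cells were sorted the same way from G-CSF-treated C57Bl/6 mice labelled iNOS knockout. GFE cells are of the same kind as GFW cells, after 3 days of culture in StemSpan medium with Flt3 ligand and SCF. The titles of GFE carry no knockout mark. MDSC are Ly6C+CD11b+ suppressor cells grown from C57Bl/6 bone marrow with G-CSF, GM-CSF and IL-13, so cells of every group had met G-CSF, in the mouse or in culture. The labels give neither age, sex nor pooling of the animals, and do not say whether the 3 replicates are separate mice, so the p-values speak only of the variation among these arrays, part or all of which may be technical. GFW, GFE and GFK share a title prefix, while RB and MDSC each have their own, so in comparisons with RB or MDSC the cells and whatever the prefix stands for cannot be told apart.

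Values are log2 signals, and array medians lay between 5.52 and 5.72. Nos2, the gene of iNOS, stood at 8.84, 8.91 and 8.92 on the GFK arrays and at 8.09, 8.32 and 8.43 on the GFW arrays. Its signal was therefore not lower on the arrays labelled knockout, and these are called "labelled knockout" throughout. Ly6g, the neutrophil antigen used to remove cells, had a mean of 12.19 on the GFW, 12.08 on the GFK and 6.28 on the RB arrays, and Cd34 had means of 7.19, 7.27 and 5.92. Markers of other blood cells thus differed between groups with the same sort label, and their list values are given with the results they accompany.

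Resident macrophages of the spleen clear ageing red cells, dying cells and blood-borne microbes. C1q, made of 3 chains, binds antibody complexes and dying cells and starts the classical complement pathway; in mice much of it is made by macrophages. Ficolins, Marco and Cd5l recognise microbial surfaces or damaged cells, Mertk and Axl bind bridging proteins that coat dying cells, Vcam1 binds integrins of the alpha-4 class on other blood cells, and Maf is a transcription factor of mature macrophages.

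The promoters of C1qb and C1qc are shown because these neighbouring genes of a single complex moved by unequal amounts between the groups, and that of Cd5l because it had the widest difference between GFK and GFW. C1qa, C1qb and C1qc lie together on chromosome 4 within 18719 bases (chr4:136880126-136898844, GRCm38.p6). Each window runs from 250 bases before to 50 after a start given by RefSeq (GRCm38.p6), which is the listed start of the gene for C1qb and Cd5l and lies 22 bases downstream of it for C1qc. Such windows were at hand for 7 of the 10 genes: Cd5l, Marco, Fcna, C1qb, C1qc, Mertk and Axl. The start used lies 7466 bases downstream of the listed start for Fcna and 191 for Axl, and at it for Marco and Mertk. Matches counted for Fcna are therefore not near its listed start. Capitals mark GAGGAA (core of PU.1 and Spi-C sites), TGCTGA (a Maf half-site) or AGGTCA (a nuclear receptor half-site), searched on both strands. A match on the reverse strand reads TTCCTC for the first motif, while it reads TCAGCA for the Maf half-site and is printed as TGACCT for the nuclear receptor half-site.
C1qb (chr4:136886151-136886450, minus strand): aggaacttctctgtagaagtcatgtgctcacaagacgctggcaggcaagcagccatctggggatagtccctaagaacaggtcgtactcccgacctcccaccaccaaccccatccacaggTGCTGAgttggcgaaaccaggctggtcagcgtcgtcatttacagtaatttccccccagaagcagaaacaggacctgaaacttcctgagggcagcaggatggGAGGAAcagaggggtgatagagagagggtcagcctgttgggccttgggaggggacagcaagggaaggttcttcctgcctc
C1qc (chr4:136892865-136893164, minus strand): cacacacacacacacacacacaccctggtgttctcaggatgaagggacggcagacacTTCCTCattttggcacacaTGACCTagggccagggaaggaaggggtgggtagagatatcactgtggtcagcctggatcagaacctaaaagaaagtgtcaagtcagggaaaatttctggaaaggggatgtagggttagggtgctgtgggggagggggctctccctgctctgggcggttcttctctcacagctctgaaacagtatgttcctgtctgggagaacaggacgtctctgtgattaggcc
Cd5l (chr3:87357631-87357930, plus strand): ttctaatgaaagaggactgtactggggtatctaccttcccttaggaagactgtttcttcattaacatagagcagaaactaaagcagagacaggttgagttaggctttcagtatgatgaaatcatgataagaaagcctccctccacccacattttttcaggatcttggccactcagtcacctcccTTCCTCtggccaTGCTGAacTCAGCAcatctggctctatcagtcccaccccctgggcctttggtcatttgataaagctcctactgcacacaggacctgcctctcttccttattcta
Counted from the start used in each window, the C1qb window holds TGCTGA at -131 and GAGGAA at -30. The C1qc window holds GAGGAA at -193 and AGGTCA at -174, both on the reverse strand, and no TGCTGA. The Cd5l window holds GAGGAA at -66 on the reverse strand and TGCTGA at -54 and, on the reverse strand, at -46. GAGGAA was found in the windows of 6 of the 7 genes, Mertk being the exception, and in 28.3% of all 32851 windows of that length. TGCTGA was found for 3 of 7 genes (Cd5l, Fcna and C1qb) and in 19.5% of all windows, and AGGTCA for C1qc alone and in 16.3% of all windows. A match is a run of letters, not a site shown to be bound.

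Of the C1q chains, C1qa had levels that overlapped between neighbouring groups of freshly sorted spleen cells, though not between RB and GFK. Its levels were lower in both cultured groups. It stood at 8.12, 8.59 and 8.77 on the GFW, 8.90, 8.72 and 8.91 on the GFK and 7.60, 7.94 and 8.25 on the RB arrays, against 6.88, 6.64 and 6.86 on the GFE and 7.20, 6.89 and 7.11 on the MDSC arrays. Every fresh array lay above every cultured one, and among the fresh groups the arrays of neighbouring groups overlapped. C1qa was 3.25-fold lower in GFE than in GFW cells (log2 difference -1.70, SE 0.17, limma adjusted p = 3.42e-07) and 1.82-fold lower in MDSC than in RB cells (-0.87, SE 0.17, limma adjusted p = 6.14e-04). RB was lower than GFW by a smaller step (-0.56, SE 0.17, limma adjusted p = 0.0131), a call lost without RB replicate 1 (adjusted p = 0.0739), without GFW replicate 3 (0.0697) and with only the 6 arrays compared in the fit (0.0585).

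C1qb showed the widest range of the chains. Its signal was 9.04, 9.17 and 9.68 in RB, 9.16, 8.99 and 9.30 in GFK, 8.18, 8.16 and 8.58 in GFW, 5.97, 6.13 and 6.55 in MDSC and 5.56, 5.12 and 5.53 in GFE cells. RB and GFK overlapped at the top, and every further step down the order, to GFW, MDSC and GFE, separated all arrays. C1qb was 7.48-fold lower in GFE than in GFW cells (-2.90, SE 0.19, limma adjusted p = 2.00e-09) and 8.45-fold lower in MDSC than in RB cells (-3.08, SE 0.19, limma adjusted p = 2.11e-09). Unlike the sign of C1qa in the same comparison, C1qb was higher in RB than in GFW cells by 0.99 (SE 0.19, limma adjusted p = 5.06e-04). C1qb also differed between the cultured groups, being 0.81 higher in MDSC than in GFE cells (SE 0.19, limma adjusted p = 0.00312). Its GFE mean ranked at percentile 40.4 of probe sets, just above the 40th percentile used as filter, so differences from GFE may be too small.

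C1qc lay at 6.18, 6.34 and 6.82 in RB, 6.43, 6.62 and 7.15 in GFW and 7.33, 6.95 and 7.58 in GFK cells. In the cultured groups it was 5.84, 5.69 and 5.45 in GFE and 5.43, 5.45 and 5.32 in MDSC cells. As with C1qa, the fresh groups overlapped with their neighbours and stood above both cultured groups. C1qc was lower in GFE than in GFW (-1.07, SE 0.20, limma adjusted p = 2.33e-04) and lower in MDSC than in RB (-1.04, SE 0.20, limma adjusted p = 4.44e-04). The MDSC mean of C1qc ranked at percentile 40.5, also just above the 40th, so differences from MDSC may be too small. Its RB minus GFW difference of -0.29 did not pass (SE 0.20, limma adjusted p = 0.244).

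Because the chains moved unequally, the log2 signal of C1qb minus that of C1qa was taken within each array, a measure chosen after the values were seen. Its size depends on the probe sets and only its change between groups can be read. It was 1.44, 1.23 and 1.43 in RB, 0.06, -0.44 and -0.18 in GFW, 0.25, 0.27 and 0.39 in GFK, -1.33, -1.51 and -1.32 in GFE, and -1.23, -0.75 and -0.55 in MDSC cells. No GFW array reached any RB array, and no cultured array reached any fresh one. The mean was 1.55 higher in RB than in GFW, and GFE minus GFW was -1.20. No test is given, since the values prompted the measure. C1qc minus C1qa varied less, with group means from -1.76 in GFW to -1.13 in GFE cells. Low signals of C1qb in GFE and of C1qc in the cultured groups may compress both measures there.

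Fcna encodes ficolin A, a soluble pattern recognition protein of the lectin pathway that is known in mouse spleen and liver macrophages. It stood at 7.02, 7.16 and 7.24 in GFW, 7.94, 7.79 and 8.23 in GFK, 6.75, 6.89 and 6.76 in RB, 5.61, 5.88 and 5.74 in GFE and 5.92, 6.00 and 5.91 in MDSC cells. The order GFK, GFW, RB, MDSC, GFE had no overlap between neighbours, although MDSC and GFE were close. Fcna was 2.63-fold lower in GFE than in GFW (-1.40, SE 0.12, limma adjusted p = 4.41e-08) and 1.81-fold lower in MDSC than in RB (-0.86, SE 0.12, limma adjusted p = 1.97e-05). MDSC minus GFE was 0.20 and did not pass (limma adjusted p = 0.226). Fcna was 1.27-fold lower in RB than in GFW (-0.34, SE 0.12, limma adjusted p = 0.0264), a small difference whose call was lost without GFW replicate 2 (0.0615), GFW replicate 3 (0.0918), RB replicate 1 (0.0724) or RB replicate 3 (0.0607).

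Among the C1q chains and Fcna, C1qa and Fcna had the most alike profiles: after centring each gene on its mean, their log2 values differed by a root mean square of 0.25 over the 15 arrays. C1qa and C1qc differed by 0.27 and Fcna and C1qc by 0.29, whereas C1qb was 0.97 from C1qa and 1.06 from C1qc. These distances depend on how widely each gene varied as well as on its pattern. They include the GFK and GFW arrays behind the choice of genes and are descriptions.

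**Figure D1:**
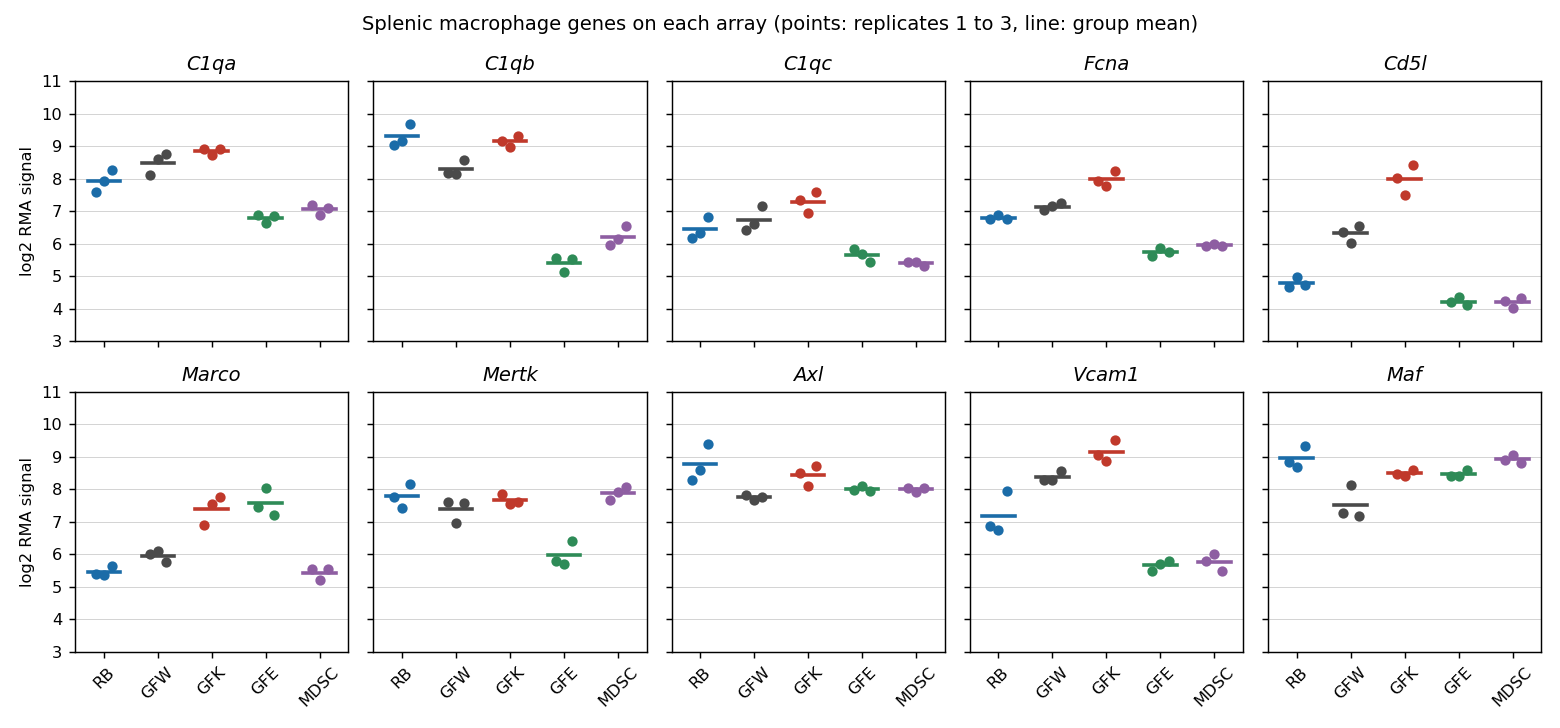
Log2 RMA signal (y axis) of each of the 10 genes on each array, by group (x axis; points are replicates 1 to 3, lines are group means). C1qa, C1qb, C1qc, Fcna, Vcam1 and Cd5l are lower on every GFE and MDSC array than on every fresh spleen array, though Cd5l is near background in RB, GFE and MDSC cells. Marco is high in GFK and GFE cells, and Maf is lowest in GFW cells.

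Cd5l, also called AIM, is a secreted scavenger receptor cysteine-rich protein made by tissue macrophages that supports their survival and binds lipids and debris. Its signal was 8.01, 7.51 and 8.42 in GFK, 6.37, 6.03 and 6.55 in GFW, 4.67, 4.98 and 4.73 in RB, 4.20, 4.35 and 4.11 in GFE and 4.22, 4.03 and 4.32 in MDSC cells. GFK, GFW and RB separated without overlap, and GFE and MDSC overlapped at the bottom. The RB, GFE and MDSC means ranked under the 40th percentile of probe sets, a level called near background here, so differences from them are lower bounds. Cd5l was at least 4.28-fold lower in GFE than in GFW (-2.10, SE 0.19), at least 4.36-fold lower in MDSC than in GFW (-2.12, SE 0.19) and at least 2.88-fold lower in RB than in GFW (-1.53, SE 0.19). Since Cd5l passed the low-value filter through the GFW and GFK arrays, these differences were read from the fit with no filter, where limma gave adjusted p of 8.43e-08, 8.60e-08 and 8.74e-06. MDSC and RB were both near background, so no fold is given between them.

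Marco, a class A scavenger receptor of marginal zone macrophages that binds bacteria and particles, had another pattern. It was 7.44, 8.02 and 7.22 in GFE, 6.91, 7.54 and 7.75 in GFK, 5.99, 6.10 and 5.74 in GFW, 5.40, 5.37 and 5.62 in RB and 5.55, 5.20 and 5.54 in MDSC cells. GFE and GFK overlapped at the top, and RB and MDSC overlapped at the bottom. Marco was 3.06-fold higher in GFE than in GFW (1.61, SE 0.21, limma adjusted p = 6.76e-06) and 4.37-fold lower in MDSC than in GFE (-2.13, SE 0.21, limma adjusted p = 8.05e-07). It was thus one of the genes that differed between the cultured groups. MDSC minus GFW was -0.52 at an adjusted p of 0.0477 from limma, a call lost when any MDSC array, GFW replicate 1 or GFW replicate 2 was left out (adjusted p from 0.0606 to 0.162) and with array medians aligned (0.155). RB minus GFW was -0.48 and did not pass (limma adjusted p = 0.0726).

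Mertk and Axl are, with Tyro3, the TAM receptor tyrosine kinases, through which macrophages take up dying cells and dampen inflammatory signalling. Mertk stood at 7.68, 7.91 and 8.08 in MDSC, 7.76, 7.42 and 8.15 in RB, 7.86, 7.55 and 7.61 in GFK and 7.59, 6.96 and 7.57 in GFW cells, neighbouring groups overlapping throughout. GFE stood apart below them at 5.80, 5.70 and 6.41. Mertk was 2.65-fold lower in GFE than in GFW (-1.40, SE 0.22, limma adjusted p = 3.72e-05) and 3.78-fold higher in MDSC than in GFE (1.92, SE 0.22, limma adjusted p = 3.34e-06). MDSC minus GFW was 0.51 (SE 0.22, limma adjusted p = 0.0521), and RB minus GFW was 0.40 (limma adjusted p = 0.135).

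Axl was 8.28, 8.60 and 9.39 in RB, 8.48, 8.11 and 8.72 in GFK, 7.97, 8.08 and 7.94 in GFE, 8.04, 7.90 and 8.04 in MDSC and 7.81, 7.68 and 7.76 in GFW cells. RB and GFK overlapped, as did GFE and MDSC. Axl was 2.01-fold higher in RB than in GFW (1.01, SE 0.21, limma adjusted p = 9.80e-04) and 1.70-fold lower in MDSC than in RB (-0.77, SE 0.21, limma adjusted p = 0.0069). Unlike Mertk it showed no call in GFE minus GFW (0.25, SE 0.21, limma adjusted p = 0.3).

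Tyro3, the third receptor, had group means between 4.41 and 5.24, did not pass the low-value filter and was near background in every group. Of the bridging ligands, Gas6 had group means from 5.41 to 5.82. Pros1, which encodes protein S, was 6.72-fold higher in RB than in GFW (2.75, SE 0.16, limma adjusted p = 1.61e-09) and 3.88-fold lower in MDSC than in RB (-1.96, SE 0.16, limma adjusted p = 4.93e-08). Mfge8, a bridging protein that binds phosphatidylserine and integrins, was highest in MDSC cells (mean 9.53), 7.04-fold above GFW (2.82, SE 0.15, limma adjusted p = 2.49e-10).

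Vcam1, an adhesion molecule of the immunoglobulin family that red pulp macrophages carry, lay at 9.04, 8.88 and 9.51 in GFK, 8.28, 8.28 and 8.56 in GFW, 6.86, 6.73 and 7.94 in RB, 5.78, 6.00 and 5.49 in MDSC and 5.47, 5.71 and 5.78 in GFE cells. The fresh groups separated from each other and from the cultured groups, which overlapped. Vcam1 was 6.59-fold lower in GFE than in GFW (-2.72, SE 0.25, limma adjusted p = 1.19e-07), 6.13-fold lower in MDSC than in GFW (-2.62, SE 0.25, limma adjusted p = 2.20e-07) and 2.29-fold lower in RB than in GFW (-1.20, SE 0.25, limma adjusted p = 0.00107). RB replicate 3, at 7.94, was more than 1 unit above the other RB arrays. Itga4, the integrin chain that binds Vcam1, had group means of 11.18 in RB, 10.48 in GFW, 10.45 in GFK, 8.79 in GFE and 8.27 in MDSC cells. Like Vcam1 it was lower in GFE than in GFW (-1.69, SE 0.10, limma adjusted p = 6.86e-10), while in RB minus GFW it was higher (0.70, SE 0.10, limma adjusted p = 3.54e-05). Its partner chain Itgb1 had means between 9.71 and 10.11.

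Maf was lowest in GFW cells, at 7.27, 8.11 and 7.18. It was 8.82, 8.69 and 9.33 in RB, 8.90, 9.06 and 8.81 in MDSC, 8.45, 8.39 and 8.60 in GFK and 8.40, 8.40 and 8.59 in GFE cells, and no GFW array reached any other group. Maf was 2.69-fold higher in RB than in GFW (1.43, SE 0.21, limma adjusted p = 3.46e-05), 2.64-fold higher in MDSC than in GFW (1.40, SE 0.21, limma adjusted p = 2.39e-05) and 1.92-fold higher in GFE than in GFW (0.94, SE 0.21, limma adjusted p = 8.83e-04). The choice of genes on GFK minus GFW may favour such calls, as it may those of C1qb and Axl in RB and Marco in GFE cells. A further probe set of Maf, with lower signal, gave 5.77, 5.95 and 5.90 in GFK, 6.11, 5.89 and 5.43 in GFW, 6.74, 6.69 and 7.17 in RB, 5.72, 5.77 and 5.69 in GFE and 5.32, 5.57 and 5.90 in MDSC cells. The probe sets concur that Maf was higher in RB than in GFW and part elsewhere. By the further probe set, RB minus GFW was 1.06 (SD 0.26 in RB and 0.35 in GFW, n = 3 each, limma adjusted p = 1.30e-04), GFE minus GFW was -0.0805 (limma adjusted p = 0.694), MDSC minus GFW -0.21 (limma adjusted p = 0.3), MDSC minus RB -1.28 (limma adjusted p = 1.77e-05) and GFK minus GFW 0.07. Which transcripts each probe set reads is not known here.

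Counted over the 10 genes, the cultured spleen cells had a lower signal of most and a higher signal of a few. In GFE minus GFW, 7 of 10 were called lower (C1qa, C1qb, C1qc, Fcna, Cd5l, Mertk and Vcam1) and 2 higher (Marco and Maf), where 31.9% of all genes tested were called lower and 35.1% higher. The median difference of the 10 was -1.40 against -0.06 over all genes. By its further probe set, Maf was not called in GFE minus GFW (-0.08). In these bulk samples, fewer cells of a type and less RNA per cell cannot be told apart. The means over 11 neutrophil markers ran from 11.34 to 11.40 on the GFW and from 5.91 to 6.12 on the GFE arrays, those over 10 progenitor markers from 7.54 to 7.82 and from 8.73 to 8.82, and those over 12 monocyte markers from 7.78 to 7.87 and from 7.38 to 7.55. In GFE minus GFW, limma called 5 monocyte markers higher and 6 lower, and 6 progenitor markers higher and 3 lower. The part of these cells in the result was not tested. With array medians aligned, the genes called in GFE minus GFW split into 5783 higher and 3286 lower in place of 5198 and 4733, since that scaling moved the median of all genes by 0.14.

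Fcna, the 3 C1q chains and Vcam1 were called lower in MDSC cells than in either fresh wild-type set, as was Cd5l, which is near background in MDSC and RB, while Marco, Maf, Mertk and Axl were not called lower in both. Of the 10 genes, 7 were called lower by limma and 0 higher in MDSC minus RB (0 higher also at an unadjusted p under 0.05), against 20.7% and 27.4% of all genes. The genes not called there by limma were Marco (-0.04), Maf (-0.03) and Mertk (0.11), with adjusted p of 0.907, 0.929 and 0.709. Each of these differences was smaller than its standard error. By its further probe set, however, Maf was lower in MDSC than in RB cells (-1.28, limma adjusted p = 1.77e-05). In MDSC minus GFW, 7 were lower and 1, Maf, higher, against 30% and 32.3% of all genes, with a median of -1.27 against -0.08. Maf was not called higher there by its further probe set (-0.21). Leaving aside Cd5l, which passed the filter through GFW and GFK, 6 of the other 9 genes were called lower in each of GFE minus GFW, MDSC minus RB and MDSC minus GFW. In MDSC minus GFW, aligned medians moved the median of all genes by 0.12 and the split from 4781 higher and 4444 lower to 5306 and 3094. Between the cultured groups, MDSC minus GFE, 2 genes were called higher (C1qb and Mertk) and 1 lower (Marco), against 16.6% and 18.9% of all genes, shares near those of the 10. Monocyte marker means ran from 7.65 to 7.78 on the MDSC and from 11.26 to 11.29 on the RB arrays, and progenitor marker means from 8.48 to 8.53 and from 6.69 to 6.92. Neutrophil marker means were close, from 9.11 to 9.15 and from 9.06 to 9.08, with 6 of the 11 called higher and 4 lower in MDSC minus RB. Against GFW, the neutrophil means of MDSC were lower (11.34 to 11.40 on the GFW arrays), as were those of B and plasma cell markers (5.80 to 5.96 and 6.90 to 7.17), while those of progenitors were higher (7.54 to 7.82 on the GFW arrays). In MDSC minus GFW, limma called 5 progenitor markers higher and 4 lower, and 3 neutrophil markers higher and 7 lower. The part of these cells in the results was not tested.

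The RB and GFW sets, which share their sort labels, differed in 7 of the 10 genes. Of these, 3 were called higher in RB (C1qb, Maf and Axl) and 4 lower (C1qa, Cd5l, Fcna and Vcam1, or 3 without Cd5l), where 25.8% of all genes were called higher and 26.5% lower. With 10 genes, these counts lie near the shares of all genes and are no result about the group as a whole. Monocyte markers had means over 12 genes from 11.26 to 11.29 on the RB and from 7.78 to 7.87 on the GFW arrays, neutrophil markers from 9.06 to 9.08 and from 11.34 to 11.40, and B and plasma cell markers from 5.96 to 6.04 and from 6.90 to 7.17. These lists moved with the comparison and their part in it was not tested.

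**Figure D2:**
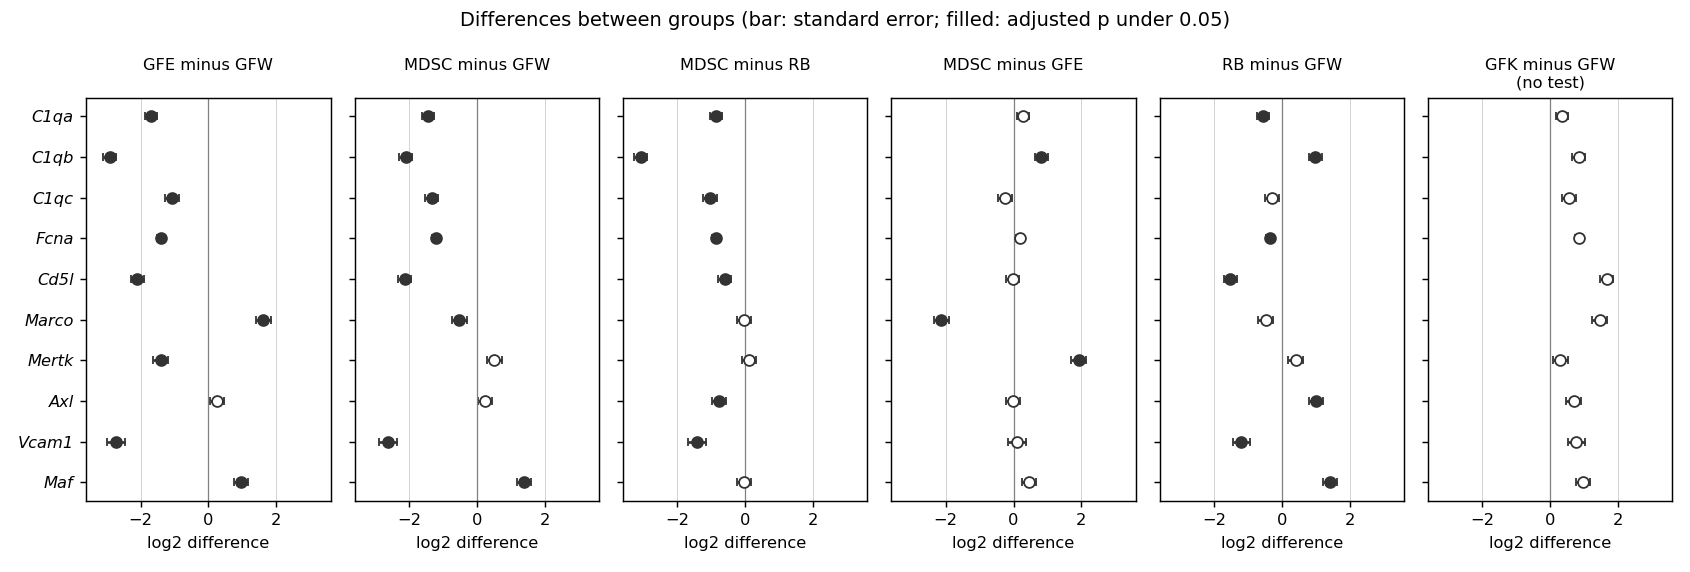
Log2 difference between groups (x axis) for the 10 genes (y axis), with limma standard errors as bars and filled points where the adjusted p was under 0.05. GFK minus GFW helped to choose the genes and has no test. C1qb and Vcam1 have the most negative values in GFE minus GFW, and Marco and Mertk part the cultured groups.

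GFK and GFW, the contrast behind the choice of several genes, are given as description. The GFK mean exceeded the GFW mean for all 10 genes, by 1.66 for Cd5l, 1.45 for Marco, 0.96 for Maf, 0.84 for Fcna, 0.84 for C1qb, 0.77 for Vcam1, 0.69 for Axl, 0.55 for C1qc, 0.35 for C1qa and 0.30 for Mertk. For 7 of them every GFK array lay above every GFW array, where 8.26% of all genes did so. C1qa, C1qc and Mertk were the exceptions. By its further probe set, Maf had overlapping arrays and a difference of 0.07. Over all genes tested, 1.3% were called higher and 0.317% lower, and nothing is read from the members' count, since they were selected on this contrast. B and plasma cell markers had array means of 7.68 to 7.85 in GFK and 6.90 to 7.17 in GFW cells, with the plasma cell gene Jchain at group means of 9.57 and 8.45. Neutrophil marker means overlapped (11.30 to 11.42 and 11.34 to 11.40). The part of the B and plasma cell markers in these values was not tested.

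In RB and in GFK, 1 array was highest for most of the 10 genes. RB replicate 3 had the highest signal of its group for 8 of 10 genes, with a median of 0.37 above the group mean, where 30.3% of all genes were highest there and their median was -0.03. GFK replicate 3 was highest for 9 of 10 (median 0.26 above the mean), where 40.7% of all genes were highest, and GFK replicate 2 was lowest for 9 of 10, where 33.1% were. GFW replicate 3 was highest for 6 of 10, where 31.6% of all genes were. No such tilt was seen on the GFE and MDSC arrays, where no array was highest or lowest for more than 4. Without RB replicate 3, the RB minus GFW difference was -1.58 for Vcam1 and 0.69 for Axl, against -1.20 and 1.01 with it.

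**Figure D3:**
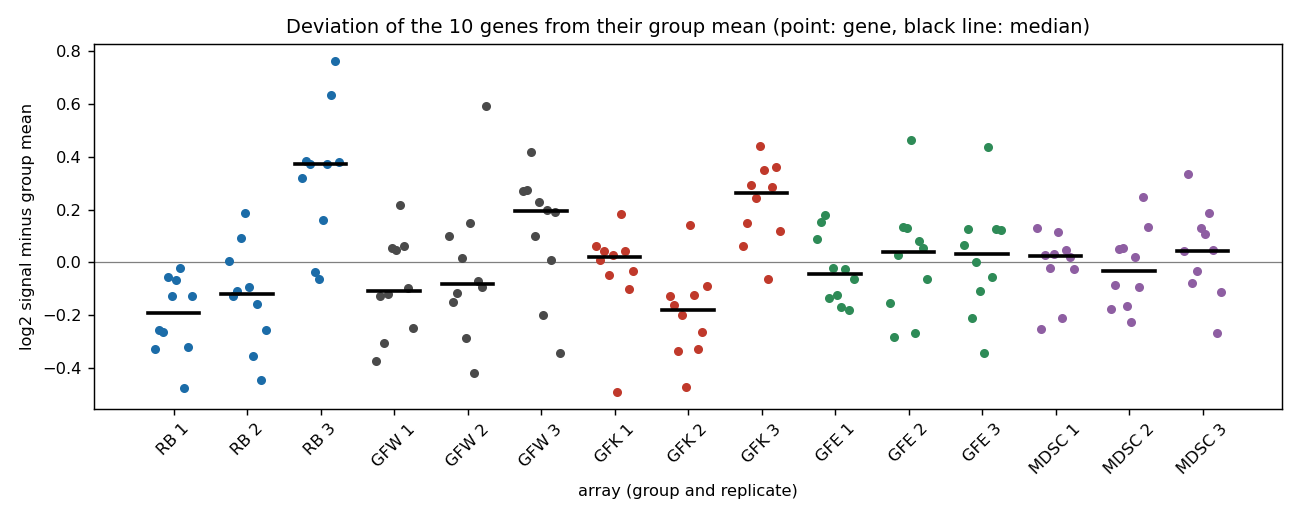
Log2 signal minus the group mean (y axis) for each array (x axis). Points are the 10 genes, drawn from left to right as C1qa, C1qb, C1qc, Fcna, Cd5l, Marco, Mertk, Axl, Vcam1 and Maf, and black lines are medians. RB replicate 3 and GFK replicate 3 have medians of 0.37 and 0.26, and GFK replicate 2 lies at -0.18.

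The macrophage label was checked against other splenic macrophage genes, of which 22 of 24 had a probe set of 1 symbol and 20 were tested. Adgre1 (F4/80) had group means of 10.64 in RB, 9.79 in GFW, 9.66 in GFK, 9.65 in MDSC and 7.88 in GFE cells. Hmox1, the haem-degrading enzyme, had means between 10.35 and 11.72. Vsig4 and Cd209b, markers of tissue-resident and marginal zone macrophages, were near background in all groups (means of at most 4.26 and 4.57), and the group means of Cd163 (4.86 to 5.76) and Timd4 (4.72 to 5.97) were near it in some groups and a little above it in GFK cells. The 10 genes are therefore called splenic macrophage genes after where they are known, and part of the markers of resident macrophages was near background on these arrays.

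Spic, the transcription factor of red pulp macrophages, had a level pattern unlike that of the C1q chains: 9.40 in GFE, 8.37 in GFK, 8.26 in RB, 7.54 in GFW and 5.21, near background, in MDSC cells. It was at least 18.2-fold lower in MDSC than in GFE (-4.19, SE 0.26, limma adjusted p = 2.64e-09). Slc40a1, the iron exporter ferroportin, had means of 11.46 in GFW, 11.30 in GFK, 8.04 in RB, 7.14 in MDSC and 7.04 in GFE cells, 21.4-fold lower in GFE than in GFW (-4.42, SE 0.22, limma adjusted p = 7.56e-11) and 10.7-fold lower in RB than in GFW (-3.42, SE 0.22, limma adjusted p = 5.11e-09). Siglec1, the sialoadhesin of marginal metallophilic macrophages, was 6.42-fold higher in RB than in GFW (2.68, SE 0.19, limma adjusted p = 1.68e-08). In MDSC cells the mannose receptor Mrc1 had a mean of 11.15, 20.9-fold above RB (4.38, SE 0.30, limma adjusted p = 7.06e-09), and the lipid-sensing receptor Pparg, at 10.32, was 19.2-fold above GFW (4.26, SE 0.20, limma adjusted p = 7.28e-11).

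Of the 20 other splenic macrophage genes, 3 were called higher and 11 lower in GFE minus GFW, where 35.1% and 31.9% of all genes were (median -0.49). In MDSC minus RB 4 were higher and 9 lower, against 27.4% and 20.7% of all genes (median -0.41), and in MDSC minus GFW 4 and 11, against 32.3% and 30% (median -0.41). The 11 fell to 7 when genes had to lie above the 60th percentile. In RB minus GFW 6 were higher and 6 lower, near the 25.8% and 26.5% of all genes (median 0.00). In MDSC minus GFE 6 were higher and 2 lower, against 16.6% and 18.9% (median 0.13), and the 2 fell to 1 without GFE replicate 1, GFE replicate 2 or MDSC replicate 2. Slc40a1, Treml4 (-3.99) and Slc11a1 (-3.80), the phagosomal metal transporter, fell most in GFE minus GFW, and Tfec (3.50) rose. Among 24 genes of dying-cell uptake, 21 were tested, of which 11 were called higher and 5 lower in RB minus GFW, against 25.8% and 26.5% of all genes (3 lower with the 60th percentile as filter), and 4 higher and 12 lower in MDSC minus RB, against 27.4% and 20.7%. Thbs1, a matrix protein that bridges dying cells to phagocytes, was at least 55.8-fold higher in RB than in GFW (5.80, SE 0.19, limma adjusted p = 3.39e-12). In GFE minus GFW, 6 were higher and 8 lower, against 35.1% and 31.9% of all genes. Cd300lf (-6.04), the lipid transporter Abca1 (-2.92) and the uptake receptor Lrp1 (-2.36) fell most. In MDSC minus GFW 8 were higher and 5 lower, against 32.3% and 30% of all genes. In MDSC minus GFE 11 were higher and 2 lower (1 lower without GFE replicate 2), against 16.6% and 18.9%.

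Of 31 complement genes, 20 were tested. In GFE minus GFW, 5 were called higher and 10 lower, against 35.1% and 31.9% of all genes, with the C5a receptor C5ar1 at least 58.4-fold lower (-5.87, SE 0.32, limma adjusted p = 2.49e-10) and the C3a receptor C3ar1 at least 30.1-fold higher (4.91, SE 0.15, limma adjusted p = 3.05e-13). C1ra, a protease that joins C1q in the C1 complex, had means from 6.04 to 6.62, and C1s1, the other protease, did not pass the filter and was near background in all groups (3.83 to 4.29). In RB minus GFW, 5 were higher and 9 lower, against 25.8% and 26.5% of all genes, and in MDSC minus RB 7 and 7, against 27.4% and 20.7%. Of 15 scavenger receptors tested, 5 were called higher (3 without GFW replicate 3) and 3 lower in RB minus GFW, against 25.8% and 26.5% of all genes. Msr1, another class A receptor, was at least 25.0-fold higher in RB than in GFW (4.64, SE 0.23, limma adjusted p = 2.13e-10). In GFE minus GFW, 2 were called higher and 5 lower, against 35.1% and 31.9% of all genes. The 2 became 4 with array medians aligned or only the 6 arrays compared, and the 5 became 3 without GFE replicate 2, GFW replicate 1 or GFW replicate 2. Msr1 was near background in GFE (mean 4.52), where Marco was high. All comparisons with GFW or RB share those arrays and are not independent.

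**Figure D4:**
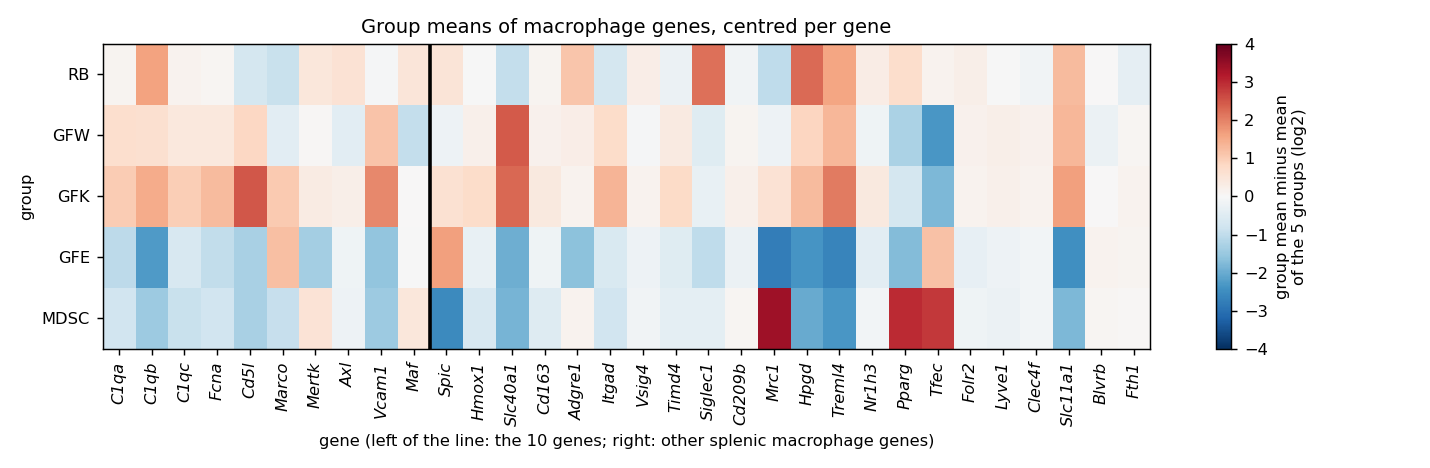
Group mean minus the mean of the 5 groups (colour, log2) for the 10 genes, left of the black line, and 22 other splenic macrophage genes (x axis) in each group (y axis). The GFE row is low for C1qb, Slc40a1, Mrc1, Treml4 and Slc11a1 and high for Spic and Marco, and the MDSC row is low for Spic and high for Mrc1, Pparg and Tfec.

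The genes with the most alike profiles over the 15 arrays were sought among all genes tested, by the root mean square difference of centred log2 values. Nearest to Cd5l were Adcy4 (0.37), Dusp16 (0.41), Vcam1 (0.55), Ccr3 (0.56) and Il18bp (0.56), against a median of 1.50 over all genes. Nearest to C1qb were Gpr35, Ccrl2, Grk5, Ahr and Apoc2 (0.37 to 0.41, median 1.62), and none was another C1q chain. Nearest to Marco were Blnk, P2ry10, Tnip1, Trp53i11 and Ifi27 (0.39 to 0.47, median 1.03). For Vcam1 these were Dnase1l3, Abca1, Antxr2, Smox and Prr5l (0.34 to 0.47, median 1.44), for Maf they were Afg1l, Ifrd1, Rilpl2, Agtpbp1 and Atp2a3 (0.28 to 0.32, median 0.70), and for Axl they were Mapkapk2, LOC100040974, Ilrun, Nab1 and Rfx4 (0.21 to 0.25, median 0.59). Among the 10 genes themselves, Maf and Axl (0.48) and Cd5l and Vcam1 (0.55) had the next smallest distances after the C1qa, C1qc and Fcna group, and Marco and C1qb were farthest apart (2.03). Genes that vary little are near many others. The 0.48 of Maf and Axl stands beside medians over all genes of 0.70 and 0.59, and the 0.55 of Cd5l and Vcam1 beside 1.50 and 1.44. Maf is read here by its probe set with the higher signal.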

How the data were processed

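RNA was hybridised as biotin-labelled cRNA, 1 array per sample. The authors made the deposited log2 values with RMA in the oligo package, per the submitters' processing notes; their versions, and the build behind the array design, were not stated there or in the labels. RMA normalises quantiles across arrays, so a shift of all genes cannot be seen. Probe sets were named by the platform annotation and RefSeq (GRCm38.p6): of 41345, 23521 had 1 symbol, 1814 several and 16010 none, and the first kind was used. The 40th percentile, over probe sets of 1 symbol, lay between 5.34 and 5.58. No arrays were identical, and the 3 arrays per group limit the precision.

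With limma 3.58.1 under R 4.3.3, lmFit and eBayes were run on all 15 arrays together with 1 coefficient per group, after a check on simulated data. This left 10 residual degrees of freedom, and the prior added 5.33. Adjusted p-values are Benjamini-Hochberg values over the 14822 genes tested, from 2-sided tests, with a call made under 0.05. Differences from groups near background are lower bounds. Values, distances and figures were made in Python 3.11.15 (numpy 2.4.6, pandas 2.3.3, matplotlib 3.10.9).

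The members and lists were chosen with earlier results of these data known. All members are named with every array; from other lists up to 4 called genes with the largest difference per comparison, and genes of a defining role, may be named. Ly6g, Cd34, Jchain and Nos2 were named beside the label checks. Alternatives changed the filter, the scaling, the prior, the probe set, the arrays in the fit, a replicate block and each replicate left out. Monocytes and progenitors of the study's design were not analysed here.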

Additional observations from a re-analysis of the deposited data

How the results depend on the processing

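Of 726 member values under the alternatives, 691 were unchanged, 13 gained a call, 19 lost one, 2 reversed and 1, with no test, moved. Unchanged means the same side of the threshold, with the same direction where either fit gave a call. In GFK minus GFW, with no test, it means the same sign and a shift smaller than the larger group SD. Values without a call could change sign, as Marco did in MDSC minus RB (-0.0950 to 0.0752 with a replicate left out). Both reversals were of Maf by its further probe set, in GFE minus GFW (-0.0805) and MDSC minus GFW (-0.21), and its GFK minus GFW value moved to 0.07. The lost calls were Fcna and C1qa in RB minus GFW, Cd5l in MDSC minus RB (adjusted p = 0.0675 without MDSC replicate 2, 0.0654 without RB replicate 2) and Marco in MDSC minus GFW. With array medians aligned Fcna stood at 0.0948, and with only the 6 arrays compared at 0.0540. Marco in RB minus GFW (0.0249) and Axl in GFE minus GFW (0.0470) were called in limma with only the 6 arrays compared. Mertk in MDSC minus GFW passed in limma under 8 alternatives (adjusted p from 0.0177 to 0.0477), Mertk in RB minus GFW without RB replicate 2 (0.0493) and Maf in MDSC minus GFE with only the 6 arrays (0.00588), while Marco in MDSC minus GFW was also lost with no filter (0.0601). The members called ran from 5 to 8 in RB minus GFW, 9 to 9 in GFE minus GFW, 6 to 7 in MDSC minus RB, 7 to 9 in MDSC minus GFW and 3 to 3 in MDSC minus GFE with a replicate left out. In GFK minus GFW, where members were not tested, 239 genes were called, 192 higher and 47 lower; leaving out a replicate gave 133 to 183, 102 to 150 and 27 to 42. There, genes called lower were 29 with array medians aligned, 76 with an intensity trend in the prior and 30 with no filter, and with only the 6 arrays 74 were called, 72 higher and 2 lower. Of 1560 counts of list genes, 1496 stayed within 1.5 times. Same-numbered replicates of the groups compared correlated between -0.09 and 0.04 in their deviations. In RB minus GFW and GFK minus GFW every array correlated best with its own number. Whether the numbers pair the arrays cannot be told from such small correlations. With the replicate number as a block in limma, Marco in MDSC minus GFW lost its call (adjusted p = 0.0550) and Mertk gained one (0.0182), and no other member's call changed. The block moved the genes called in GFK minus GFW from 192 higher and 47 lower to 160 and 42. The causes of these changes were not tested.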
